A study of Mus musculus with 70 samples.

Results

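Complement is described here through 9 genes measured in sorted blood leukocytes of mice after chronic social defeat stress (CSDS). The genes were taken by name from a table of 52636 genes. They are the C1q chains C1qa, C1qb and C1qc, the central component C3, the alternative pathway genes Cfb and Cfp, the anaphylatoxin receptors C3ar1 and C5ar1, and the membrane regulator Cd55. All 9 were present in the table. RNA came from Ly6Chigh monocytes (Ly6high in the labels), Ly6Clow monocytes (Ly6low), B cells and T cells of C57BL/6J mice that were 7 to 8 weeks old at the time of CSDS. CON mice were left unstressed. SUS and RES mice went through 10 days of CSDS and were then split by their social interaction (SI) ratio, with RES mice at a ratio of at least 1 and SUS mice below it. The cells were sorted on surface CD11b, Ly6C, Ly6G, B220 and CD90.2 after lysis of red cells, so a library stands for a gate and not for a single clone. The labels name brain as the source, whereas the methods describe blood.

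Complement is a cascade of plasma proteins that marks surfaces for uptake and recruits leukocytes. C1q starts the classical pathway when it binds antibody or debris. All routes meet at the cleavage of C3, and the alternative pathway amplifies this step through factor B (Cfb) and properdin (Cfp). The small fragments C3a and C5a act on the receptors C3ar1 and C5ar1 of myeloid cells, and Cd55 protects host cells by speeding the decay of the convertases. The liver makes most of the plasma proteins, while monocytes and macrophages make C1q, properdin and some C3.

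On mm10 (GRCm38) with GENCODE M21, C1qb (chr4:136880129-136886187), C1qc (chr4:136889804-136893065) and C1qa (chr4:136895917-136898803) lie side by side on the minus strand. C5ar1 (chr7:16246743-16259540) lies next to the other C5a receptor gene, C5ar2 (chr7:16234585-16244154). C3 (chr17:57203970-57228136) and Cfb (chr17:34856374-34862518) are on the same chromosome, and C3ar1 (chr6:122847138-122856161), Cfp (chrX:20925454-20931555) and Cd55 (chr1:130439027-130462744) are on others. Promoters of 7 of the 9 genes were found in RefSeq (GRCm38.p6), each from 250 bases before to 50 bases after the start. A pair of motifs was searched on both strands, GGAAGT, a core read by PU.1 and other ETS factors, and TTGCNNAA, a C/EBP site. GGAAGT was present in 23.8% and TTGCNNAA in 10.8% of the 32851 promoters of this length, and none of the promoters below held both. The promoters of C5ar1 (chr7:16259289-16259588), the one gene called with stress, C3 (chr17:57228087-57228386), the gene with the highest level per kilobase in monocytes, and C1qb (chr4:136886151-136886450) and C1qc (chr4:136892865-136893164), whose levels were compared library by library, are shown 5′ to 3′ on the minus strand. Capitals mark the motif on either strand, so ACTTCC is GGAAGT read on the other strand.
C5ar1: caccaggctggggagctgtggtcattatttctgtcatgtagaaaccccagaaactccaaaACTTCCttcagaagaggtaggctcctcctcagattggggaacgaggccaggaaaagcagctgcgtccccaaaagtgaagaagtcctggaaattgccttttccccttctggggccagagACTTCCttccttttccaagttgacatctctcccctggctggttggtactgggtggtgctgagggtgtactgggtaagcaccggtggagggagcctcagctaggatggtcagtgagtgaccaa
C3: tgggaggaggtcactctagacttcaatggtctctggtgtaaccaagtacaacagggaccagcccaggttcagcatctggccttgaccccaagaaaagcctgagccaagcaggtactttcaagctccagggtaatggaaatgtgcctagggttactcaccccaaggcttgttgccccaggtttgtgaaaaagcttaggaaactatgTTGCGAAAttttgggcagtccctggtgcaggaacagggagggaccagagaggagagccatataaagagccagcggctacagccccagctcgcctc
C1qb: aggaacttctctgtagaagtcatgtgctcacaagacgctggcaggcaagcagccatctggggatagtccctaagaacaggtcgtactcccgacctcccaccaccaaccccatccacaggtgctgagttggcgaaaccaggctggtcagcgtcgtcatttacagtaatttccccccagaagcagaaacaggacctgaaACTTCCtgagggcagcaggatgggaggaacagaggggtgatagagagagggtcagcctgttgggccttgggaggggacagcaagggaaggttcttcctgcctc
C1qc: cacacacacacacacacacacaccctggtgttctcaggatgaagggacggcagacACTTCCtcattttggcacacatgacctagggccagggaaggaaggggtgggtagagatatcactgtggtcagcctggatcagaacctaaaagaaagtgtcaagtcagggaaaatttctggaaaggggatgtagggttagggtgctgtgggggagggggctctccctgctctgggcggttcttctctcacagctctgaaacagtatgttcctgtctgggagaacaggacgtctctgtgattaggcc
C5ar1 held the ETS core 2 times, C1qb and C1qc held it 1 time each, and C3 held the C/EBP site 1 time. The promoters of Cfp, C3ar1 and Cd55 held neither string.

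The table held 70 libraries, of which 68 were used. Library 52, labelled B cells of a RES mouse, held Cd3e, a T cell receptor subunit, at 412 CPM and Cd79a, a B cell receptor subunit, at 5.76 CPM. Library 70, labelled T cells of a RES mouse, held Cd79a at 1417 CPM and Cd3e at 0.143 CPM. These markers went against both labels, and the libraries were left out. The remaining groups held 6 libraries each, except Ly6Clow CON with 4 and B RES and T RES with 5 each. The other libraries held the defining markers of their gate, with Cd79a between 1167 and 1884 CPM in B cells, Cd3e between 372 and 530 CPM in T cells, Ly6c2 between 244 and 904 CPM in Ly6Chigh and Treml4 between 383 and 647 CPM in Ly6Clow monocytes. Total counts ranged from 19769835 to 67038231, with 0.395% to 41.0% of them on the genes Gm23935 and Gm26917. The labels name no mouse, so p-values measure the spread between libraries, and libraries of the same mouse cannot be recognized.

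In CON mice, the members of the cascade were spread unequally over the 4 cell types. C3 and Cfp were highest in Ly6Chigh monocytes, the C1q chains and C5ar1 had their highest means in Ly6Clow monocytes, and Cd55 was highest in B cells. Levels are given as CPM, library counts scaled by the TMM method. A call needed both an absolute log2 fold change above 1 and an adjusted p under 0.05 (edgeR's quasi-likelihood test, Benjamini-Hochberg over every gene in the fit). Of the 9 genes, 8 passed the filter on low counts in this fit, and Cfb did not. The number called was 4 of 8 for Ly6Chigh vs. Ly6Clow, against 11.2% of all 21032 genes tested. It was 7 of 8 for Ly6Chigh vs. B (33.1% of all genes), 6 of 8 for Ly6Chigh vs. T (32.8%), 8 of 8 for Ly6Clow vs. B (30.3%), 8 of 8 for Ly6Clow vs. T (28.5%) and 2 of 8 for B vs. T cells (20.2%). Genes that passed the filter through a single cell type had to differ, so these counts describe the genes and support nothing further. In bulk libraries, fewer cells that express a gene and less RNA per cell cannot be told apart.

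C3, on which all pathways meet, had the highest level per kilobase of the 9 genes in both monocyte types. In Ly6Chigh CON libraries it ranged from 1319 to 1648 CPM with a median of 1463, and the 4 Ly6Clow CON libraries held 147, 171, 191 and 203 CPM. The ranges were far apart, and the difference was 3.04 on the log2 scale (SE 0.786, adjusted p = 0.00928). C3 in CON lymphocytes was 2.91 ± 3.29 CPM in T cells and 1.54 ± 1.53 CPM in B cells (SD, n = 6 each). Ly6Clow monocytes exceeded T cells by 5.92 (log2, SE 0.795, adjusted p = 5.30e-06), while B and T cells did not differ beyond their spread (adjusted p = 0.345).

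Cfp encodes properdin, which stabilizes the alternative pathway convertase, and it followed an order in which every neighbour differed. Its mean was 59.6 ± 14.7 CPM in Ly6Chigh (SD, n = 6), 17.3 ± 3.88 CPM in Ly6Clow (n = 4), 7.03 ± 1.64 CPM in B cells (n = 6) and 1.86 ± 0.834 CPM in T cells (n = 6). Ly6Chigh exceeded Ly6Clow monocytes by 1.78 (log2, SE 0.293, adjusted p = 5.09e-05). The steps from Ly6Clow to B cells (1.34, SE 0.273, adjusted p = 0.000226) and from B to T cells (1.89, SE 0.263, adjusted p = 1.70e-06) also passed the test. Cfb, the protease partner of C3b, was near the limit of detection, with 62 counts in the 6 Ly6Chigh CON libraries together, 1 count in Ly6Clow, 1 count in B cells and none in T cells. Of its exonic bases, 79.5% also belong to the read-through gene Gm20547 on the same strand, which had 0 counts in all 70 libraries. How reads shared by both genes were counted is not given in the sources used here, so the level of Cfb is uncertain.

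C5ar1, the receptor of C5a, was a gene of both monocyte types, while C3ar1 differed less between cell types. C5ar1 ranged from 5.62 to 16.2 CPM in Ly6Chigh CON libraries (median 10.5), and the 4 Ly6Clow CON libraries held 12.9, 19.4, 24.4 and 30.4 CPM. These ranges overlapped, and the difference did not pass the test (log2 fold change −1.02, SE 0.621, adjusted p = 0.298). In a fit of the 2 monocyte types alone it was called (−1.03, SE 0.288, adjusted p = 0.0129). C5ar1 was at 0 in 5 of 6 B cell and 3 of 6 T cell CON libraries, and Ly6Chigh exceeded T cells by 7.34 (log2, SE 0.797, adjusted p = 3.02e-08). C3ar1, the receptor of C3a, averaged 8.07 ± 3.68 CPM in Ly6Clow (SD, n = 4), 4.57 ± 2.74 CPM in Ly6Chigh, 1.76 ± 0.764 CPM in T and 1.26 ± 1.25 CPM in B cells (n = 6 each). No neighbours in this order differed beyond their spread (adjusted p between 0.123 and 0.657). Ly6Chigh exceeded B cells by 1.89 (log2, SE 0.723, adjusted p = 0.0332), a call that was lost without any 1 of libraries 4, 7, 13, 35, 38 or 50 (adjusted p 0.0513 to 0.0863). In a fit of these 2 cell types alone C3ar1 was not called (1.86, SE 0.862, adjusted p = 0.0848). Ly6Clow exceeded T cells by 2.20 (log2, SE 0.776, adjusted p = 0.0248), a call lost without library 29, 32 or 56 (adjusted p 0.0513 to 0.0706).

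The C1q chains, which assemble into 1 molecule, had their highest means in Ly6Clow monocytes. In the 4 Ly6Clow CON libraries C1qa was 0.248, 0.859, 3.01 and 10.6 CPM, C1qb was 1.41, 5.36, 6.53 and 10.0 CPM, and C1qc was 0.372, 2.13, 7.53 and 10.4 CPM. Library 29 was the highest for all 3 chains, and library 21 the lowest. The sum of 6 macrophage genes (Vsig4, Timd4, Cd5l, Marco, Mertk and Axl) was also highest in library 29 (26.9 CPM) and lowest in library 21 (13.0 CPM). It was 14.2 CPM in library 24 and 16.3 CPM in library 32, against 68.4 to 93.5 CPM in Ly6Chigh CON libraries. Only the sum is given for these libraries, and a single gene of the list could set its order. The part of macrophage RNA in the C1q levels was not tested. In Ly6Chigh CON libraries the highest values were 0.769, 2.20 and 1.12 CPM for C1qa, C1qb and C1qc. The lower level of C1qc in Ly6Chigh monocytes was called (log2 fold change −3.70, SE 1.20, adjusted p = 0.0399), while C1qa (−3.68, SE 1.62, adjusted p = 0.121) and C1qb (−2.88, SE 1.31, adjusted p = 0.133) were not. The call of C1qc was lost without library 4, 7, 13, 29 or 32 (adjusted p 0.0736 to 0.168). In a fit of the 2 monocyte types alone, C1qa (adjusted p = 0.0481) and C1qb (adjusted p = 0.0185) were called as well.

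Lymphocytes held almost no C1q. C1qc had no count in any CON library of B or T cells, and its pooled level in Ly6Clow monocytes (4.74 CPM) was at least 319-fold higher than in B cells and at least 387-fold higher than in T cells, taking 3 counts over the group as the floor. On the same floor, Ly6Chigh monocytes (0.397 CPM) were at least 26.7-fold and 32.4-fold higher. Library 29 held 364 of the 726 Ly6Clow counts, and without it the bounds were 206-fold and 250-fold. Library 16 held 44 of the 89 Ly6Chigh counts, and without it they were 16.4-fold and 19.9-fold. C1qa and C1qb passed the test between Ly6Clow monocytes and both lymphocyte types, with adjusted p between 0.000893 and 0.0153. C1qa against T cells was lost without library 29 (adjusted p = 0.129). C1qb in Ly6Chigh monocytes was called against B cells (3.31, SE 1.31, adjusted p = 0.0392) and T cells (3.83, SE 1.35, adjusted p = 0.0213), the former lost without library 4, 7, 13, 38, 41, 44, 47 or 50 (adjusted p 0.0515 to 0.103) and the latter without library 4 (adjusted p = 0.0556).

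The means of Cd55 had the opposite order to those of C3. B cells of CON mice ranged from 471 to 769 CPM (median 542), T cells from 73.4 to 104 CPM (median 84.4), the 4 Ly6Clow libraries held 3.55, 6.58, 7.19 and 9.69 CPM, and Ly6Chigh libraries ranged from 0.0577 to 2.48 CPM (median 0.247). None of these 4 ranges overlapped. Each step was called, with B above T by 2.72 (log2, SE 0.463, adjusted p = 0.000114), T above Ly6Clow by a fold of 12.9 (adjusted p = 3.52e-05) and Ly6Clow above Ly6Chigh by a fold of 9.84 (adjusted p = 0.000283). Lymphoid markers also differed between the monocyte libraries of CON mice. The sum of 4 T cell genes was 21.3 to 68.0 CPM in Ly6Clow against 0.461 to 3.74 CPM in Ly6Chigh libraries, that of 4 B cell genes 19.6 to 22.1 against 4.53 to 18.6 CPM, and that of 4 NK cell genes 245 to 826 against 1.12 to 37.9 CPM. Their part in the Cd55 level of Ly6Clow monocytes was not tested. The close paralog Cd55b can share reads with Cd55, and an antisense gene, Gm16083, covers 2.1% of its exonic bases.

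**Figure D1:**
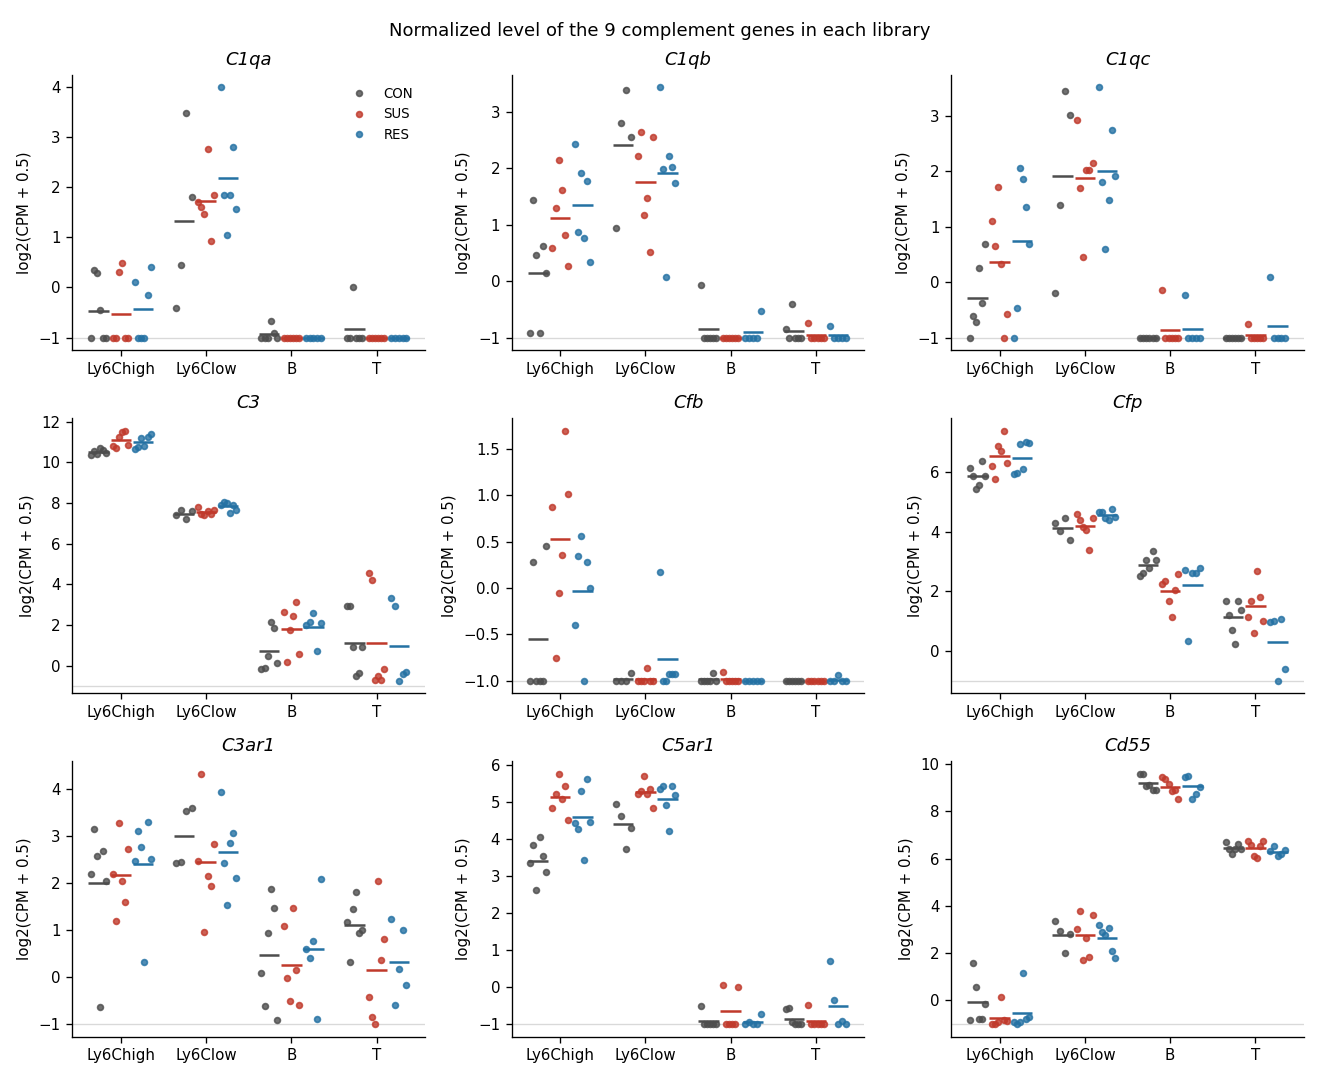
Level of each of the 9 genes as log2(CPM + 0.5) (y axes, scaled per gene) in the 68 libraries by cell type (x axes), with 1 point per library and a line at the group mean. CON is grey, SUS red and RES blue, and the pale line marks 0 counts. C3 sits highest in Ly6Chigh monocytes, the C1q chains in Ly6Clow monocytes and Cd55 in B cells.

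Per kilobase of exon, which allows levels to be compared between genes, C3 led in both monocyte types of CON mice, with 286 ± 25.3 CPM per kb in Ly6Chigh and 34.6 ± 4.74 CPM per kb in Ly6Clow (SD, n = 6 and n = 4). Cfp came second in both, at 34.4 ± 8.46 and 9.96 ± 2.23 CPM per kb. C5ar1 (8.47 ± 2.90 CPM per kb) and C1qb (5.36 ± 3.26 CPM per kb) followed in Ly6Clow monocytes. In lymphocytes Cd55 led, with 122 ± 27.6 CPM per kb in B and 18.1 ± 2.24 CPM per kb in T cells (n = 6 each), and Cfp came second.

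The comparisons of SUS, RES and CON mice asked whether complement genes moved with CSDS in any sorted cell type. In Ly6Chigh monocytes, C5ar1 rose in both stressed groups. It was the only one of the 9 genes called in any of the 12 contrasts. C5ar1 ranged from 5.62 to 16.2 CPM in CON mice, with a median of 10.5. SUS mice held 22.3 to 54.1 CPM (median 35.2) and RES mice 10.3 to 48.7 CPM (median 21.4). No SUS library overlapped the CON libraries, whereas RES library 12, at 10.3 CPM, fell within them. The log2 fold change was 1.71 for SUS vs. CON mice (SE 0.313, adjusted p = 0.00168, a fold of 3.28) and 1.28 for RES vs. CON mice (SE 0.310, adjusted p = 0.0240, a fold of 2.43). SUS and RES mice did not differ beyond their spread (0.43, adjusted p = 0.999). The SUS call held without each library in turn, while the RES call was lost without library 1, 7, 9, 15 or 18 (adjusted p 0.0527 to 0.0731).

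These counts stand against a broad background of change in Ly6Chigh monocytes. In this cell type 8 of the 9 genes were tested, all but Cd55. For SUS vs. CON mice 1 of the 8 was called, against 3.45% of 16955 genes, and for RES vs. CON mice 1 of the 8, against 0.997%. The same gene was the 1 of 8 whose SUS and CON libraries did not overlap, against 6.96% of all genes tested, and none of the 8 separated RES from CON libraries (4.42% of all genes). For SUS vs. RES mice 0 of 8 were called and 0 had an unadjusted p under 0.05, and 0% of all genes were called, with 620 of them at an unadjusted p under 0.05 (edgeR) and 20 called by DESeq2, none of these a member. The median log2 fold change of the 8 genes was 0.95 for SUS vs. CON mice, beside −0.05 over all genes tested. Besides C5ar1, the genes above this median were C1qb, C1qc and Cfb, with SUS means of 1.91, 1.07 and 1.16 CPM. Their SEs were 0.812, 1.20 and 1.41, and none of them was called.

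RNA of red cells moved with the stress groups in the same libraries. The summed level of 6 red cell genes (Hba-a1, Hba-a2, Hbb-bs, Hbb-bt, Alas2 and Slc4a1, all detected in every library) ranged from 343 to 1215 CPM in CON libraries, up to a range of 1097 to 8988 CPM for SUS and 1077 to 4348 CPM for RES libraries of Ly6Chigh monocytes. With the mean log2 level of these genes as a covariate, C5ar1 was no longer called, at 1.21 for SUS vs. CON (SE 0.405, adjusted p = 0.478) and 0.84 for RES vs. CON mice (SE 0.392, adjusted p = 0.949). In that fit 1 of all 16955 genes was called for SUS and 0 for RES vs. CON mice. The unadjusted p of C5ar1 by edgeR's test was 0.0065 for SUS and 0.0423 for RES vs. CON mice. Most stressed libraries had more red cell RNA than any CON library, so the covariate and the condition cannot be fully told apart in this fit. Without SUS library 14, which had the most red cell RNA, the SUS vs. CON change was 1.62 (adjusted p = 0.00264). Of the remaining SUS libraries, all but library 5 still held more red cell RNA than any CON library. Leaving out library 14 therefore does not separate red cell RNA from condition either.

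Other blood cells carry C5ar1 as well, neutrophils most of all. The summed level of 6 neutrophil genes was 361 to 537 CPM for CON, 375 to 595 CPM for SUS and 368 to 604 CPM for RES libraries of Ly6Chigh monocytes, nearly all of it Csf3r, which monocytes also express. Of the other genes on this list, Stfa2l1 was at 0 in all CON and RES libraries and in 4 of 6 SUS libraries, and Ly6g did not exceed 1.13 CPM in any. Cxcr2, Retnlg and Mmp9, also on the list, are given here only as part of the sum. Dendritic cell genes went the other way, with a sum of 127 to 165 CPM among CON, 30.5 to 98.7 CPM among SUS and 70.7 to 153 CPM among RES libraries. Most of that sum was Flt3 and Cd209a, while Siglech was at 0 in 5 of 6 SUS and 5 of 6 RES libraries. The macrophage list summed to 68.4 to 93.5, 22.7 to 82.0 and 46.6 to 98.0 CPM, mostly Axl, with Timd4 at 0 in all 18 libraries and Marco at 0 in all but 1. The sum of 6 platelet genes was 6.15 to 10.4 CPM in CON (median 6.53), 5.86 to 51.3 CPM in SUS (median 17.9) and 7.66 to 19.7 CPM in RES libraries (median 12.9). The monocyte markers had medians of 3303, 4324 and 3705 CPM for the 4 Ly6Chigh genes and of 649, 536 and 522 CPM for the 4 Ly6Clow genes, in the order CON, SUS, RES. Their part in the change of C5ar1 was not tested.

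**Figure D2:**
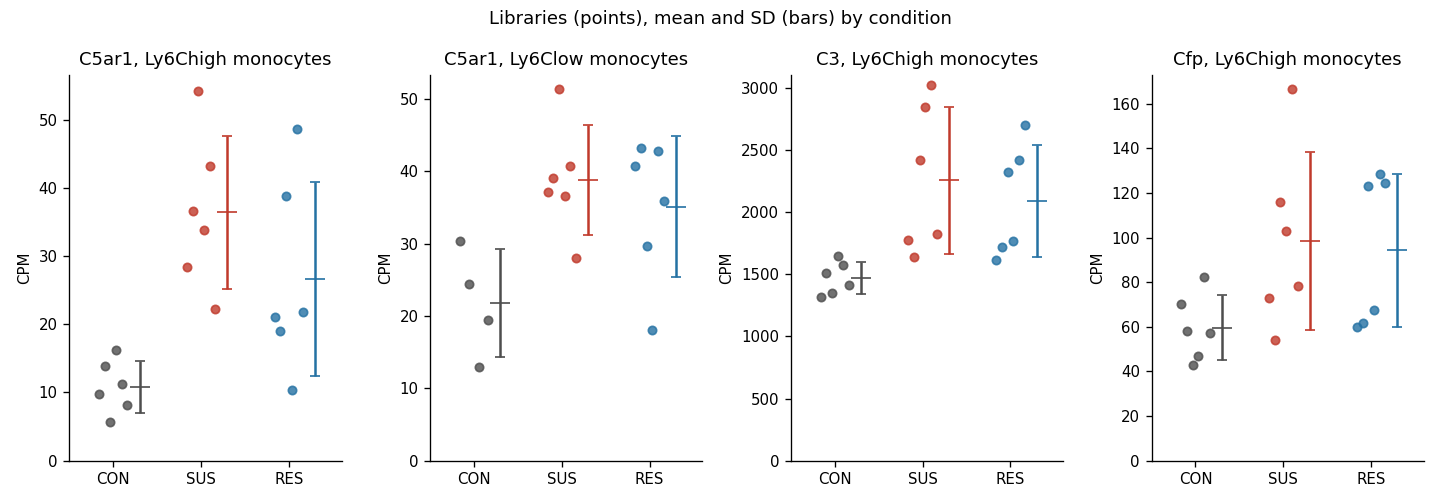
CPM (y axes, from 0) of C5ar1 in Ly6Chigh and Ly6Clow monocytes and of C3 and Cfp in Ly6Chigh monocytes, by condition (x axes), with 1 point per library and the mean ± SD beside the points. C5ar1 of Ly6Chigh monocytes lies above 22 CPM in all SUS libraries and at or below 16.2 CPM in all CON libraries, and the ranges of C3 and Cfp touch or overlap.

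C3 and Cfp had higher means in stressed Ly6Chigh monocytes but did not meet the call. C3 ranged from 1319 to 1648 CPM in CON mice, against 1643 to 3024 CPM for SUS (median 2124) and 1615 to 2705 CPM for RES (median 2046). SUS and CON libraries thus overlapped by a single library on each side. The adjusted p of C3 was under the threshold for SUS vs. CON mice, but the change was smaller than 2-fold (log2 0.59, SE 0.158, adjusted p = 0.0170). For RES vs. CON mice it was 0.49 (SE 0.158, adjusted p = 0.0667). Cfp ranged from 42.9 to 82.4 CPM in CON mice, against 54.2 to 167 CPM for SUS and 59.9 to 129 CPM for RES, with overlap throughout. Its log2 fold change was 0.69 for SUS (SE 0.248, adjusted p = 0.0662) and 0.64 for RES vs. CON mice (SE 0.247, adjusted p = 0.127). With the red cell covariate, the SUS vs. CON values were 0.21 for C3 (adjusted p = 0.936) and −0.01 for Cfp (adjusted p = 0.998). SUS library 14 was the highest for C3, Cfp and red cell RNA. Without it the change was 0.43 for Cfp (adjusted p = 0.244) and 0.45 for C3 (adjusted p = 0.0442).

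The remaining members were low in Ly6Chigh monocytes, and none passed the test. C1qb ranged from 0.0287 to 2.20 CPM in CON libraries, from 0.700 to 3.96 CPM for SUS and from 0.773 to 4.89 CPM for RES. C1qc did not exceed 3.65 CPM and C1qa did not exceed 0.906 CPM in any library. Cfb was at 0 in 4 of 6 CON, 0 of 6 SUS and 1 of 6 RES libraries, with at most 2.74 CPM. C3ar1 averaged 4.57 ± 2.74, 4.54 ± 2.71 and 5.77 ± 2.97 CPM (SD, n = 6 each) for CON, SUS and RES. Cd55 was not tested in this cell type, with a highest level of 2.48 CPM.

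**Figure D3:**
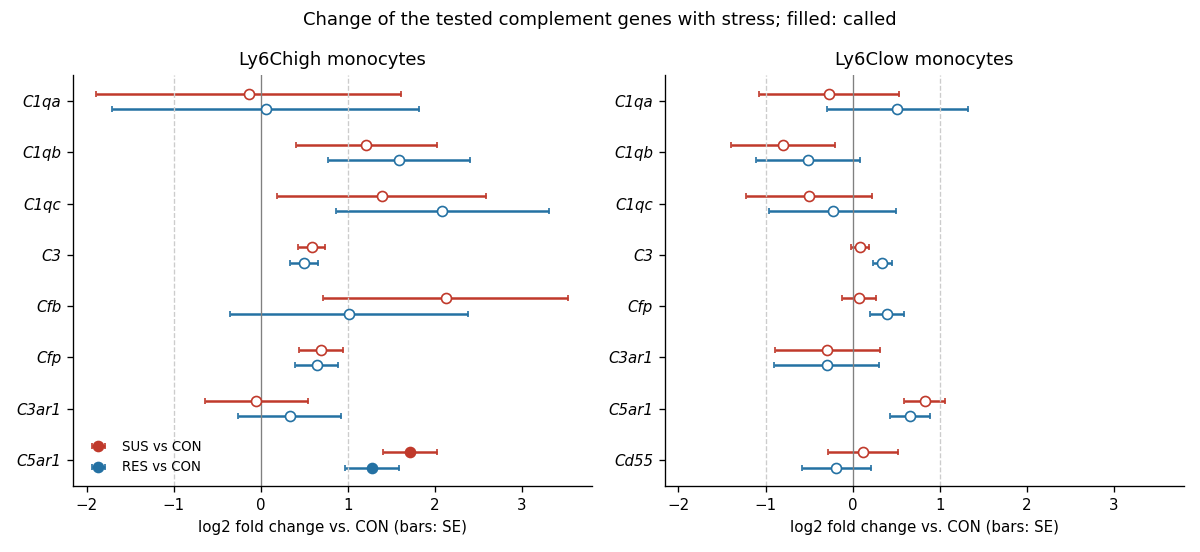
Log2 fold change against CON (x axes, edgeR) of the 8 members tested in Ly6Chigh and in Ly6Clow monocytes (y axes), SUS in red and RES in blue, with bars for the SE, dashed lines at a change of 1 in either direction, and filled points for called genes. C5ar1 in Ly6Chigh monocytes carries the only filled points, and the C1q chains and Cfb have wide bars.

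In Ly6Clow monocytes no member was called. C5ar1 was 12.9, 19.4, 24.4 and 30.4 CPM in the CON libraries, ranged from 28.0 to 51.4 CPM for SUS (median 38.1) and from 18.1 to 43.3 CPM for RES (median 38.3). Only CON library 21 overlapped the SUS range. The log2 fold change was 0.83 for SUS vs. CON (SE 0.233, adjusted p = 0.176) and 0.66 for RES vs. CON mice (SE 0.232, adjusted p = 0.326). DESeq2 gave the SUS change an adjusted p of 0.0418 at the same size, below the fold threshold. Without library 21 the change was 1.02, with an adjusted p of 0.124 in edgeR. The difference between the SUS vs. CON changes of C5ar1 in Ly6Chigh and Ly6Clow monocytes did not pass the test (0.93, SE 0.845, adjusted p = 0.723), so the rise is not shown to be particular to Ly6Chigh monocytes. Red cell RNA was higher here too, at 295 to 1259 CPM for CON, 859 to 2691 CPM for SUS and 877 to 3919 CPM for RES libraries. With the red cell covariate the C5ar1 change was 0.60 for SUS (SE 0.256, adjusted p = 0.741) and 0.45 for RES vs. CON mice (adjusted p = 0.798).

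The other 7 members tested in Ly6Clow monocytes gave no call either. C3 was 178 ± 24.4 CPM for CON (SD, n = 4), 190 ± 19.5 for SUS and 230 ± 31.4 for RES (n = 6 each), with an adjusted p of 0.241 for RES vs. CON. The C1q chains varied between libraries more than between groups, with C1qb at 5.83 ± 3.55, 3.37 ± 2.00 and 4.16 ± 3.28 CPM for CON, SUS and RES. The counts were 0 of 8 members called for SUS vs. CON (0.0871% of 19521 genes; 1 member at an unadjusted p under 0.05), 0 of 8 for RES vs. CON (0.0154%; 2 members) and 0 of 8 between SUS and RES (0%; 1 member). DESeq2 called 0 members in each of the 3 contrasts.

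**Figure D4:**
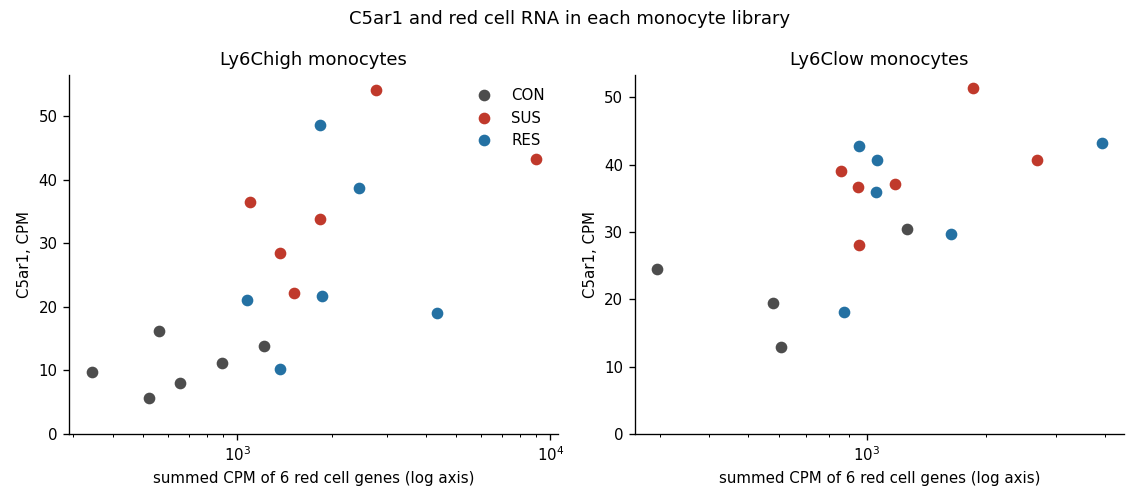
C5ar1 (CPM, y axes) against the summed CPM of 6 red cell genes (x axes, log scale) in the 18 Ly6Chigh and 16 Ly6Clow libraries, 1 point per library, CON grey, SUS red and RES blue. In Ly6Chigh monocytes most CON libraries lie at both a low C5ar1 level and a low red cell sum, and SUS library 14 lies farthest right, at a sum of 8988 CPM and 43.2 CPM of C5ar1.

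In B and T cells only C3, Cfp, C3ar1 and Cd55 were tested, and none was called. Cd55 of B cells was 594 ± 134 CPM for CON (SD, n = 6), 540 ± 130 for SUS (n = 6) and 547 ± 157 for RES (n = 5). In T cells it was 87.6 ± 10.9, 88.6 ± 18.5 and 78.4 ± 8.59 CPM in the same order. Cfp of B cells ranged from 5.24 to 9.64 CPM in CON and from 1.70 to 5.41 CPM in SUS mice, and the RES libraries held 0.757, 5.55, 5.56, 6.00 and 6.33 CPM. A single library on each side kept the CON and SUS ranges of Cfp from being apart, and its log2 fold change of −0.91 (SE 0.378) had an unadjusted p of 0.0232 and an adjusted p of 0.999. C3 of B cells had an unadjusted p of 0.0432 for SUS vs. CON mice (log2 1.34, SE 0.630, adjusted p = 0.999), at 1.54 ± 1.53 and 3.90 ± 2.96 CPM.

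By edgeR, 0 of 4 members were called in B cells between SUS and CON mice (0.00568% of 17620 genes; 2 members at an unadjusted p under 0.05), between RES and CON mice (0%; 0 members) and between the 2 stressed groups (0%; 0 members). In T cells 0 of 4 were called between SUS and CON mice (0.0265% of 18860 genes), between RES and CON mice (0%) and between the 2 stressed groups (0%), with 0 members at an unadjusted p under 0.05 in each. DESeq2 called 0 members in all 6 contrasts. With libraries 52 and 70 kept under their labels, 0 members were called in B and T cells as well.

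By edgeR, Cfp was the single member whose change with stress differed between Ly6Chigh monocytes and another cell type. Its SUS vs. CON change in Ly6Chigh monocytes exceeded that in B cells by 1.65 (log2, SE 0.445, adjusted p = 0.0220, interaction term), with means that went from 59.6 to 98.4 CPM in Ly6Chigh monocytes and from 7.03 to 3.71 CPM in B cells. Neither change was called on its own. The difference was 1.43 without SUS library 14 of Ly6Chigh monocytes, and its adjusted p was then 0.0572. The red cell covariate was not fitted for the interaction. In Ly6Chigh monocytes alone, it took the SUS vs. CON change of Cfp from 0.69 to −0.01. Called at an adjusted p under 0.05, 1 of 9 members differed between Ly6Chigh monocytes and B cells (5.72% of 23122 genes), 0 of 9 between Ly6Chigh and Ly6Clow monocytes (0.272%; 1 member at an unadjusted p under 0.05, 0 called by DESeq2) and 0 of 9 between Ly6Chigh monocytes and T cells (3.15%; 2 members). DESeq2 called Cd55 in addition, against B cells (adjusted p = 0.0404) and against T cells (adjusted p = 0.0364). Cd55 averaged 0.684 CPM among CON and 0.125 CPM among SUS libraries of Ly6Chigh monocytes, so this rests on few counts. Without SUS library 11, which held the highest SUS level (0.612 CPM), edgeR called Cd55 against Ly6Clow monocytes, B cells and T cells (adjusted p of 0.0416, 0.0124 and 0.0177). C1qb against B cells passed without library 4 or 17 (adjusted p of 0.0462 and 0.0460).

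Within a list of 51 other complement genes, those called in Ly6Chigh monocytes all rose. Of the 24 tested, 4 were called for SUS vs. CON (C1rl, C4b, Fcnb and C5ar2) and 2 for RES vs. CON mice (C1rl and C4b), beside 3.45% and 0.997% of all genes. DESeq2 called 6 and 3 of them. Calls of edgeR over all genes leaned upward as well. They were 387 higher and 198 lower for SUS and 90 higher and 79 lower for RES vs. CON mice. DESeq2 called more genes lower than higher for SUS vs. CON mice. C5ar2, the second C5a receptor and the neighbour of C5ar1, ranged from 4.28 to 9.79 CPM for CON, 10.0 to 21.8 for SUS and 8.06 to 15.4 for RES. SUS and CON libraries did not overlap (log2 fold change 1.29, SE 0.266, adjusted p = 0.00325), and RES vs. CON mice differed by 0.82 (SE 0.264, adjusted p = 0.0698). The median log2 fold change of the 24 genes was 0.53 for SUS vs. CON mice, beside −0.05 over all genes.

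The other called genes were listed under the classical and lectin pathways. C1rl, a relative of the C1r protease, ranged from 6.36 to 13.9 CPM in CON and from 20.5 to 68.1 CPM in SUS mice (log2 2.07, SE 0.355, adjusted p = 0.00144), and rose by 1.63 in RES mice (SE 0.351, adjusted p = 0.0151; 0.0561 without library 18). C4b, whose product joins the C3 convertase, had means of 1.61 ± 1.36 CPM for CON, 16.7 ± 10.2 for SUS (adjusted p = 0.00980) and 15.6 ± 14.4 for RES (adjusted p = 0.0270; SD, n = 6 each). Its paralog C4a, with which it can share reads, averaged 0.758 CPM in CON and 1.28 CPM in SUS mice. Fcnb, a ficolin, went from 6.47 ± 3.80 to 21.0 ± 18.1 CPM in SUS mice (adjusted p = 0.0460). The Fcnb call was lost without library 1, 4, 7, 10, 11, 13 or 14 (adjusted p 0.0663 to 0.196), and the RES call of C4b without library 1, 4, 7, 9, 10, 13, 15 or 18 (adjusted p 0.0513 to 0.0758). With the red cell covariate 0 of the 24 were called.

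No other complement gene was called in Ly6Clow monocytes (26 tested), B cells (21 tested) or T cells (22 tested), and DESeq2 called 1, in B cells for RES vs. CON mice. At an unadjusted p under 0.05 there were 4, 3 and 1 in Ly6Clow monocytes, 2, 2 and 0 in B cells and 0, 1 and 0 in T cells, for SUS against CON, RES against CON and SUS against RES. By CPM in CON mice, with no correction for length, Lrp1, a scavenger receptor that also binds C1q, led the list in Ly6Chigh (2490 ± 430 CPM, SD, n = 6) and Ly6Clow monocytes (2229 ± 224 CPM, n = 4). Itgb2, the common chain of the iC3b receptors CR3 and CR4, followed at 1226 ± 113 and 1842 ± 194 CPM, and Calr at 433 ± 38.1 and 541 ± 58.3 CPM. Calr (598 ± 89.4 CPM), Cr2, the B cell receptor of C3d (305 ± 51.9 CPM), and Itgb2 (147 ± 12.5 CPM) led in B cells, and Itgb2 (455 ± 47.7 CPM), Calr (366 ± 42.9 CPM) and Cr1l (64.0 ± 6.18 CPM) in T cells. Per kilobase, Itgb2 led in Ly6Chigh (402 ± 37.0 CPM per kb) and Ly6Clow monocytes (604 ± 63.5 CPM per kb), ahead of Calr and the long gene Lrp1.

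The C1q chains were then compared library by library, since their genes are adjacent and their products join. In the 16 Ly6Clow libraries C1qa and C1qc were correlated with a Pearson r of 0.794 (permutation p = 0.00033, adjusted over 6 relations 0.00198) and a Spearman rho of 0.700 (adjusted permutation p = 0.0217). C1qb and C1qc gave r = 0.692 (adjusted permutation p = 0.00888) and rho = 0.541 (adjusted permutation p = 0.0796). C1qa and C1qb gave r = 0.587 (adjusted permutation p = 0.0321) and rho = 0.524 (adjusted permutation p = 0.0796). Without the 2 libraries farthest from the median of the first gene, r was 0.624, 0.754 and 0.399 in the same order, so the relation of C1qa with C1qb is weaker without libraries 20 and 21. As deviations from the condition means, r was 0.825, 0.722 and 0.706.

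In the 18 Ly6Chigh libraries no pair passed. The values of r were −0.04 for C1qa with C1qc, 0.298 for C1qb with C1qc and 0.379 for C1qa with C1qb, with adjusted permutation p of 0.879, 0.276 and 0.180. Spearman rho was −0.05, 0.218 and 0.307, with adjusted permutation p of 0.855, 0.461 and 0.322. Without the 2 farthest libraries, r was −0.10, 0.205 and 0.428, and as deviations from the condition means it was −0.05, 0.0784 and 0.464. C1qa had no count in 10 of these 18 libraries, which leaves little range. Whether the relation differs between the monocyte types was not tested.

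**Figure D5:**
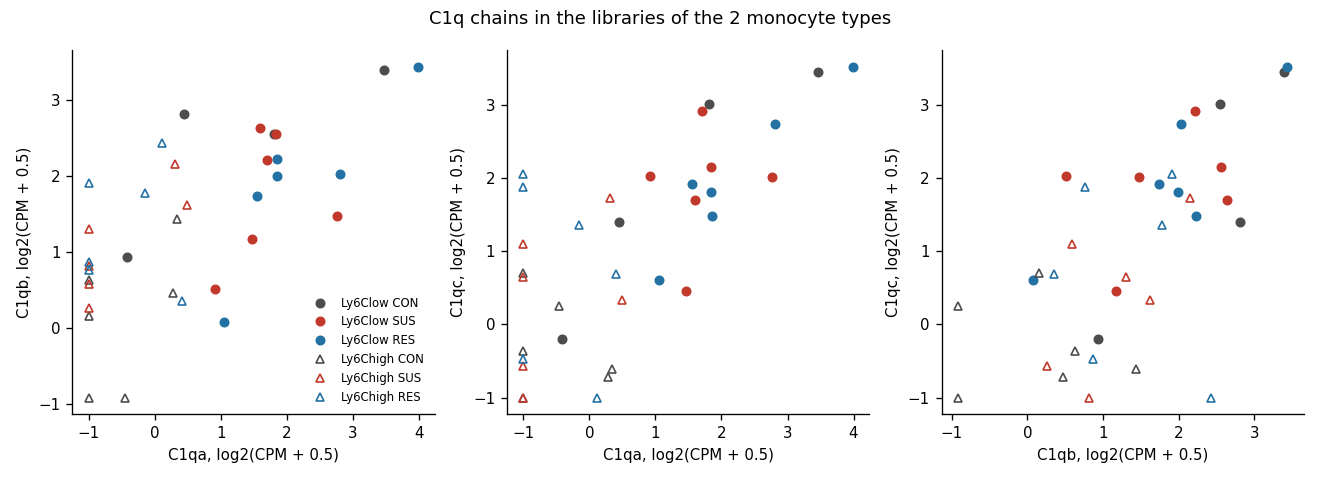
Each pair of C1q chains as log2(CPM + 0.5) (both axes) in the 16 Ly6Clow libraries (filled circles) and the 18 Ly6Chigh libraries (open triangles), coloured by condition. The Ly6Clow libraries spread along a rising line in the plot of C1qc against C1qa (r = 0.794), and many Ly6Chigh libraries sit at the lowest C1qa level.

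Over the 68 libraries, the protein-coding genes whose log2 level was most alike were found for each member among 9437 genes with a mean of at least 5 CPM. The points share 4 cell types, so differences between the types enter these values, which are given as a description. C3 was most like Lyz2 (r = 0.987), Tgfbi (0.986) and Ccl6 (0.983), and C5ar1 most like Ctsb (0.984), Dpep2 (0.982) and Sirpb1a (0.980). Cfp was closest to Psap (0.953), Pacsin2 (0.951) and Tcn2 (0.948), and Cd55 to Aff3 (0.975), Mylip (0.972) and Trp53i11 (0.969). The C1q chains had weaker partners. C1qa was closest to Lilra5 (0.871), Cd300ld4 (0.861) and Cd300ld3 (0.858), C1qb to Fcgr4 (0.886), Ear2 (0.885) and Sh2d1b1 (0.879), and C1qc to Fcgr4 (0.853), Agpat4 (0.841) and Trem1 (0.837). C3ar1 (Tnfsf13b 0.758, Glt8d1 0.752, Tnks 0.746) and Cfb (Acaa1a 0.788, Rpn2 0.785, Slc25a5 0.784) had the lowest values, and Cfb had few counts in most libraries.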

How the data were processed

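RNA was sequenced from sorted leukocytes, 1 library per sample. The authors mapped reads to mm10 with HISAT2 and deposited htseq-count raw counts per Ensembl gene, 1 column per library, with no normalization. Genes were matched by identifier to GENCODE M21 (52403 of 52636). Counts were fitted in R 4.3.3 with edgeR 4.0.16 (filterByExpr, TMM, robust quasi-likelihood) per cell type, for the 4 cell types in CON mice, and as an interaction over CON and SUS libraries. The script was tested on simulated data. Alternatives were DESeq2 1.42.0, its size factors, no filter, fits without mitochondrial, hemoglobin, Gm23935 and Gm26917 counts, fits of the compared groups only, a red cell covariate, and each library left out. The SE is the absolute log2 fold change over the square root of F. The pseudocount was 0.5 CPM. No 2 libraries of a group had identical counts (161 pairs). Named genes were all 9 members, called or most abundant genes of a list of 51 other complement genes, and the 3 genes most alike each member. Members, lists and tests were chosen with earlier results of these data known. No molecular identifiers were used, so read counts are not molecule counts and floors cover counting error only.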

Additional observations from a re-analysis of the deposited data

Results flagged for a closer look

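Among 61 combinations of a member and a group with a mean of at least 1 CPM, 5 held a library far from the others of its group, where chance gives about 1 in 20. In Ly6Clow monocytes of RES mice, library 20 held C1qa at 15.4 CPM (next highest 6.49) and C1qb at 10.3 CPM (next highest 4.17). In Ly6Clow monocytes of SUS mice, library 27 held C1qa at 6.29 CPM (next highest 3.08) and library 22 held C3ar1 at 19.4 CPM (next highest 6.60). In B cells of RES mice, library 40 held Cfp at 0.757 CPM, below the next lowest at 5.55 CPM.

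The SUS vs. CON change of Cfp differed between Ly6Chigh monocytes and B cells, by 1.65 on the log2 scale (interaction term, adjusted p = 0.0220). Without SUS library 14 of Ly6Chigh monocytes the adjusted p was 0.0572, and the red cell covariate was not fitted for this term.

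Library 70, labelled T cells and left out, held Cd55 at 402 CPM and Cfp at 4.19 CPM, above the highest T cell libraries of CON mice (104 and 2.72 CPM). It also held the B cell marker Cd79a at 1417 CPM.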

How the results depend on the processing

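Of the counts of members called, 114 under other settings and 261 with 1 library left out were within 1.5 times the reported count, and 6 and 11 were not. Many of these counts were 0 in both fits, as in every left-out fit of the stress contrasts in Ly6Clow monocytes, B and T cells. The comparison is of counts and not of which genes were called. With the red cell covariate the members called in Ly6Chigh monocytes were 0 for SUS vs. CON and 0 for RES vs. CON mice. In fits of only the 2 cell types compared, 7 members were called for Ly6Chigh vs. Ly6Clow and 4 for Ly6Chigh vs. B. The C1q chains were not tested in the latter fit. For the interaction, DESeq2 called 2 members against B and 1 against T cells. When single libraries were dropped, the count was 0 to 1 for RES vs. CON in Ly6Chigh monocytes, 0 to 1 for the interaction against Ly6Clow, 0 to 2 against B and 0 to 1 against T cells. Of the 55 member changes with an unadjusted p under 0.05, 2 turned sign under any alternative, that of Cfp in Ly6Chigh monocytes (SUS vs. CON) to −0.0104 with the red cell covariate, and the interaction of C1qa against T cells to −0.0549 without T cell CON library 59 (−0.0549 to 5.31 over the left-out libraries, reported fit 4.73). The cause was not tested. Of the 92 changes at a higher p, 45 turned sign under at least 1 alternative. All 108 mean levels moved by less than 1 SD with DESeq2 size factors. The 18 alternative correlations kept their sign and their side of 0.05 (unadjusted), although C1qb with C1qc in Ly6Chigh monocytes went from 0.298 to 0.0784 as deviations from the condition means.

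Over all genes, the number called ranged from 1 to 814 for SUS vs. CON (reported fit 585) and from 0 to 508 for RES vs. CON (169) in Ly6Chigh monocytes, from 2 to 104 and 0 to 17 in Ly6Clow monocytes (17 and 3), from 0 to 39 and 0 to 11 in B cells (1 and 0) and from 0 to 72 and 0 to 18 in T cells (5 and 0). For SUS vs. RES mice it reached 20, 6 and 6 in Ly6Chigh, Ly6Clow and T cells, where the reported fit gave 0. The interaction counts ranged from 31 to 345 against Ly6Clow (63) and from 354 to 1048 against T cells (728). In Ly6Chigh monocytes, 387 genes were called higher and 198 lower in SUS vs. CON mice, and DESeq2 called 387 higher and 427 lower. DESeq2 moved the median log2 fold change of all genes by −0.11 and the covariate by 0.11. No paired analysis was possible because the labels give no shared replicate numbers or mice. Cfb and the C1q chains had wide SEs in the stress contrasts. These were 0.799 to 1.76 for Cfb and the C1q chains in Ly6Chigh monocytes. For the C1q chains in Ly6Clow monocytes they were 0.541 to 0.813. The median counts per Ly6Clow library were 104 for C1qa, 147 for C1qb and 133.5 for C1qc. Changes of the size of these SEs were not detectable with these libraries. The parts of depth and of spread between libraries were not tested.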

Other observations

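C3 in T cells varied far more between libraries than between conditions. It was 0.208, 0.275, 1.36, 1.39, 7.01 and 7.20 CPM in the CON libraries, 0.109, 0.113, 0.206, 0.390, 18.2 and 23.3 CPM in the SUS libraries, and 0.0959, 0.256, 0.316, 7.18 and 9.57 CPM in the RES libraries. No T cell library lay between 1.39 and 7.01 CPM, and each condition had 2 libraries above this gap, numbered 53 to 58 together. The summed level of 4 Ly6Clow monocyte genes (Nr4a1, Ace, Treml4 and Cd36) was 24.2, 23.7, 26.4, 31.5, 25.6 and 40.8 CPM in libraries 53 to 58. It was 24.0 CPM in library 59 and 2.68 to 14.5 CPM in the other 10. That of 6 neutrophil genes was 3.37 to 14.1 CPM in libraries 53 to 58 and 0 to 4.30 CPM in the other 11. This pattern was seen after the values were known, and the part of monocyte or neutrophil RNA in it was not tested.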
